A study of Mus musculus with 6 samples.

Results

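The acid-sensing ion channel (ASIC) genes Asic1, Asic2, Asic3 and Asic4 and the epithelial sodium channel (ENaC) subunit genes Scnn1a, Scnn1b and Scnn1g were examined in primary smooth muscle cells from the oviducts of WT mice and of mice with a conditional knockout of Pbrm1 (Pbrm1 cKO), a chromatin remodeling gene. These 7 genes were 7 of the 54232 genes in the count table and were found by matching the Ensembl gene identifiers to the listed symbols. Asic3 was chosen by its own counts, which were much higher in cKO than in WT, so its rise is described below without a test, and the other 6 genes were taken as members of the same channel families. All values are RNA levels, and no current, protein or pH measurement was part of these data.

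RNA-seq was performed with 3 libraries of each genotype on cells from the oviducts of mated females on day 2 of pregnancy, aged 8 to 12 weeks. In both groups the minced oviducts were digested with trypsin, collagenase and dispase, and the filtered cells were kept in serum-containing medium for 4 h and, after a change of medium, for another 2 h. In the cKO mice, which the study describes as Pbrm1 fl/fl with PR-IRES-cre/+, both copies of Pbrm1 were floxed and the cre was placed at the progesterone receptor (PR) gene, so that it acts in cells with PR expression. The labels called the control mice WT, whereas a legend in the supplement of the study called them Pbrm1 fl/fl. Strain and the number of animals per library were not given in the labels, so p-values measure the spread between these libraries.

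ASICs and ENaC belong to the same superfamily of sodium channels, each built as a trimer of subunits with short intracellular ends and a large extracellular domain. ASICs open when the fluid outside the cell turns acidic and are best known from sensory and central neurons, where Asic3 is typical of the sensory neurons that innervate muscle and the heart. ENaC is open at rest, is blocked by amiloride, and carries sodium across tight epithelia, with Scnn1a, Scnn1b and Scnn1g encoding its α, β and γ subunits. Surface ENaC is set by the ubiquitin ligase Nedd4l and the kinase Sgk1, and its opening is raised by proteases that cut the α and γ subunits.

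The libraries held 15390818 to 18947947 counts, and a count of 3, taken as the floor, corresponded to 0.159 to 0.193 CPM (read counts scaled to a common library total with the TMM factors of edgeR), a limit that covers counting error only. Pbrm1, the targeted gene, had 170, 183 and 172 CPM in WT replicates 1, 2 and 3 and 43.5, 50.7 and 42.7 CPM in cKO (log2 fold change -1.94 ± 0.0637 SE; edgeR adjusted p = 9.13e-11), so that 26.04% of the WT level remained. Of the 15376 genes that passed the count filter, 43.7% differed between genotypes at an edgeR adjusted p under 0.05, with 21.9% higher and 21.8% lower in cKO, and the groups did not overlap in 53.5%. The smooth muscle marker genes were all present, with a summed level of 3670 to 3750 CPM in WT and 4630 to 5240 CPM in cKO. Markers of other cells were present too, and their summed levels were 1120 to 1220 and 1360 to 1520 CPM for 12 epithelial genes, 682 to 733 and 992 to 1080 CPM for 12 leukocyte genes, and 4990 to 5560 and 7460 to 7820 CPM for 12 fibroblast genes in WT and cKO. The mitochondrial share of counts was 7.95% to 8.24% in WT and 6.88% to 7.81% in cKO. The part of these differences in the results below was not tested unless stated, and in bulk RNA fewer cells of a type cannot be told apart from less RNA per cell.

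Asic3, which encodes the ASIC subunit most sensitive to small falls in pH, was the channel gene with the largest difference between the genotypes. The gene (ENSMUSG00000038276.12) lies on the plus strand of GRCm38 chromosome 5 from 24413392 to 24417835 and has 2423 bases of exon in 9 blocks. WT replicates 1, 2 and 3 held 22, 19 and 13 Asic3 counts, and the cKO replicates held 207, 133 and 159. On the CPM scale these were 1.3, 1.02 and 0.761 in WT and 11.6, 7.06 and 10.2 in cKO. Every cKO library was far above every WT library, and WT replicate 3 was the only library under 1 CPM. The mean was 9.64 ± 2.35 CPM in cKO against 1.03 ± 0.27 CPM in WT (SD, n = 3 each), a log2 fold change of 3.22 ± 0.239 (SE), and 12 of the tested genes had a larger rise. Over 14 other ways of fitting the counts or leaving out a library the log2 fold change of Asic3 lay between 3.05 and 3.41.

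Within the cKO group, Asic3 was lowest in replicate 2, which was also the cKO library with the most residual Pbrm1 (50.7 CPM against 43.5 and 42.7). With 3 libraries no relation between these levels could be tested. Because Asic3 is best known from neurons, neuronal markers were examined beside it. Of 12 neuronal markers, 6 passed the count filter. Of these, 4 were called (66.7%, beside 43.7% of all genes), 2 higher and 2 lower in cKO. The summed level of the 12 was 78.6 to 87.2 CPM in WT and 56.9 to 61 CPM in cKO. The synaptic gene Snap25 had no count in any WT library and in 2 of 3 cKO libraries. Most of the summed level came from Uchl1, which fell from 68.2 to 41.2 CPM on average, so the sum mainly follows this 1 gene. The other marker called lower was Stmn2 (3.27 to 1.2 CPM). The 2 called higher were the tubulin gene Tubb3 (6.88 to 11.3 CPM) and Syt1 (1.4 to 2.68 CPM). Whether neurons had a part in the Asic3 level was not tested. The 8 Schwann and glial markers summed to 36.6 to 39.4 CPM in WT and 41.9 to 44.2 CPM in cKO, and Sox10, which defines these cells, had at most 0.45 CPM in any library.

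The promoter of Asic3 is shown because this gene had the largest change, and that of Scnn1b because, among the channel genes above the count filter, it was the other one with groups that did not overlap. Each sequence is the RefSeq window on GRCm38.p6 from 250 bases before to 50 bases after the start, and the 300 bases are written 5′ to 3′ on the strand of the gene. Asic3 lies at chr5:24413201-24413500 and Scnn1b at chr7:121864788-121865087, both on the plus strand.
Asic3: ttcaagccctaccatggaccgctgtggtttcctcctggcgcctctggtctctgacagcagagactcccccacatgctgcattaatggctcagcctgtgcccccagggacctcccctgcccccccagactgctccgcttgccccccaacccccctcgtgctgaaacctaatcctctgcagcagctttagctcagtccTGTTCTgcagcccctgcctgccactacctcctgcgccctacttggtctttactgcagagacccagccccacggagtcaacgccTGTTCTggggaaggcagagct
Scnn1b: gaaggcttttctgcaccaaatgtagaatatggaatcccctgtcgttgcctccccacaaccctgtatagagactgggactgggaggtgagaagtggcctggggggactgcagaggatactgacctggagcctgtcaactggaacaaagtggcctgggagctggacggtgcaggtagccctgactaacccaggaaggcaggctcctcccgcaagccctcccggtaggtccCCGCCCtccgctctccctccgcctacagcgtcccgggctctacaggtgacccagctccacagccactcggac
The capitals in Asic3 mark matches to the steroid receptor half-site AGAACA, here on the opposite strand, and the capital letters in Scnn1b mark the GC box GGGCGG, also on the opposite strand.

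The half-site is the short motif that the receptors for progesterone, glucocorticoids and androgens recognize in pairs of neighbouring copies. Asic3 held 2 matches, at positions 197 and 280 counted from the first base of the window. They had the same orientation and were not neighbours, so they did not form such a pair. Of the 32851 RefSeq promoters searched, 2.54% held at least 2 matches and 19% held at least 1. No half-site was matched in the promoters of Asic1, Asic2, Scnn1b or Scnn1g, and no promoter of Asic4 or Scnn1a was matched in the table. The E-box CANNTG, a motif present in 72.3% of promoters and left in lower case here, was found once in Asic3 and 3 times in Scnn1b. The GC box, held by 35.7% of promoters, was found in Scnn1b and Scnn1g and not in Asic3. Neither the AP-1 site TGANTCA, the cAMP response element TGACGTCA, the TATA box TATAAA nor the CArG box of smooth muscle genes was matched in Asic3 or Scnn1b on either strand. Those motifs were held by 7.81%, 1.79%, 13.6% and 1.63% of all promoters. The Asic3 window had a GC content of 62% and 7 CpG dinucleotides, against medians of 52.7% and 7 over all promoters, and the Scnn1b window had 61.7% and 10. A match to such letters is a description of the sequence and no evidence of binding.

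Asic1 and Asic2 encode the ASIC subunits that dominate in the brain, and their levels did not pass the test. Asic1 (ENSMUSG00000023017.10, chromosome 15, 99670368 to 99701130, plus strand) had 1.06, 0.642 and 0.703 CPM in WT and 1.07, 1.06 and 1.29 CPM in cKO. The groups overlapped because WT replicate 1 was as high as the lower cKO libraries, and 1 WT library and all 3 cKO libraries were above 1 CPM. The log2 fold change of Asic1 was 0.50 ± 0.295 (SE; edgeR adjusted p = 0.189), from only 12 to 20 counts per library. Asic2 (ENSMUSG00000020704.13, chromosome 11, 80880169 to 81968457, minus strand) had 6.09, 7.91 and 6.15 CPM in WT and 8.38, 7.37 and 7.72 CPM in cKO. It was the only channel gene above 1 CPM in all 6 libraries, and its groups overlapped through WT replicate 2. The log2 fold change of Asic2 was 0.21 ± 0.129 (SE; edgeR adjusted p = 0.199).

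Asic4, a family member that does not open to protons on its own, was close to the limit of detection. It lies on chromosome 1 from 75450436 to 75474343 (plus strand) and had 0 counts in every WT library and 3, 2 and 1 counts in the cKO libraries. No library of either group was above the floor of 3 counts, so Asic4 was not tested and no fold is given. Its exons overlapped those of Gm37264, a gene on the opposite strand with 1 count in a single cKO library, and reads were counted by strand. No other channel gene had exons in common with another gene, and no 50-base stretch of any of the 7 occurred in transcripts of other genes.

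Among the ENaC subunits, Scnn1b changed in the direction opposite to Asic3. Scnn1b (ENSMUSG00000030873.9, chromosome 7, 121865038 to 121918514, plus strand) had 28, 23 and 17 counts in the WT libraries against 5, 11 and 3 in the cKO libraries. On the CPM scale these were 1.65, 1.23 and 0.995 in WT and 0.281, 0.584 and 0.193 in cKO. All WT libraries lay above all cKO libraries, and 2 WT libraries and no cKO library exceeded 1 CPM. The mean fell from 1.29 ± 0.334 to 0.353 ± 0.205 CPM (SD, n = 3 each), a log2 fold change of -1.81 ± 0.391 (SE; edgeR adjusted p = 0.00203). Scnn1b had passed the count filter through its WT libraries, which limits what its p-value can show. Without any filter the log2 fold change of Scnn1b was -1.82, and with DESeq2 it was -1.85 (DESeq2 adjusted p = 0.00555). The counts behind the cKO mean were few, with 3 counts in replicate 3. Without cKO replicate 2, the highest of the cKO libraries, its log2 fold change was -2.39, and without cKO replicate 3 it was -1.55. The summed level of the 12 epithelial markers was higher in cKO, and most but not all of those called were higher. Of these genes 8 were called (66.7%, beside 43.7% of all genes). Higher in cKO were 7, among them Epcam (30.9 to 65.3 CPM), Krt19 (125 to 216 CPM), Cldn4 (72.9 to 114 CPM) and Cdh1 (70.2 to 102 CPM). The 1 called lower was the ciliary dynein gene Dnah5 (1.71 to 0.599 CPM). Among those not called, Krt7 (170 to 156 CPM), Pax8 (14.7 to 13.5 CPM) and Foxj1 (5.9 to 4.91 CPM) were lower on average and Cldn3 (7.62 to 9.33 CPM) was higher. Whether epithelial cells had a part in the Scnn1b level was not tested.

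The subunits that would complete an ENaC trimer were scarce in both genotypes. Scnn1a (chromosome 6, 125320659 to 125344943, plus strand), the subunit needed for a working channel, had 0.532, 0.374 and 0.585 CPM in WT and 0.787, 0.477 and 0.193 CPM in cKO. Its libraries overlapped throughout, with means of 0.497 ± 0.11 and 0.486 ± 0.297 CPM (SD, n = 3 each), and with 3 to 14 counts per library it did not pass the filter. Scnn1g, which lies beside Scnn1b on chromosome 7 (121734479 to 121768475, plus strand), had a single count in WT replicates 1 and 3 and in cKO replicate 3, and 0 in the other libraries. At this depth Scnn1g was not detectable above the floor in any library. Neither gene exceeded 1 CPM in any library.

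**Figure D1:**
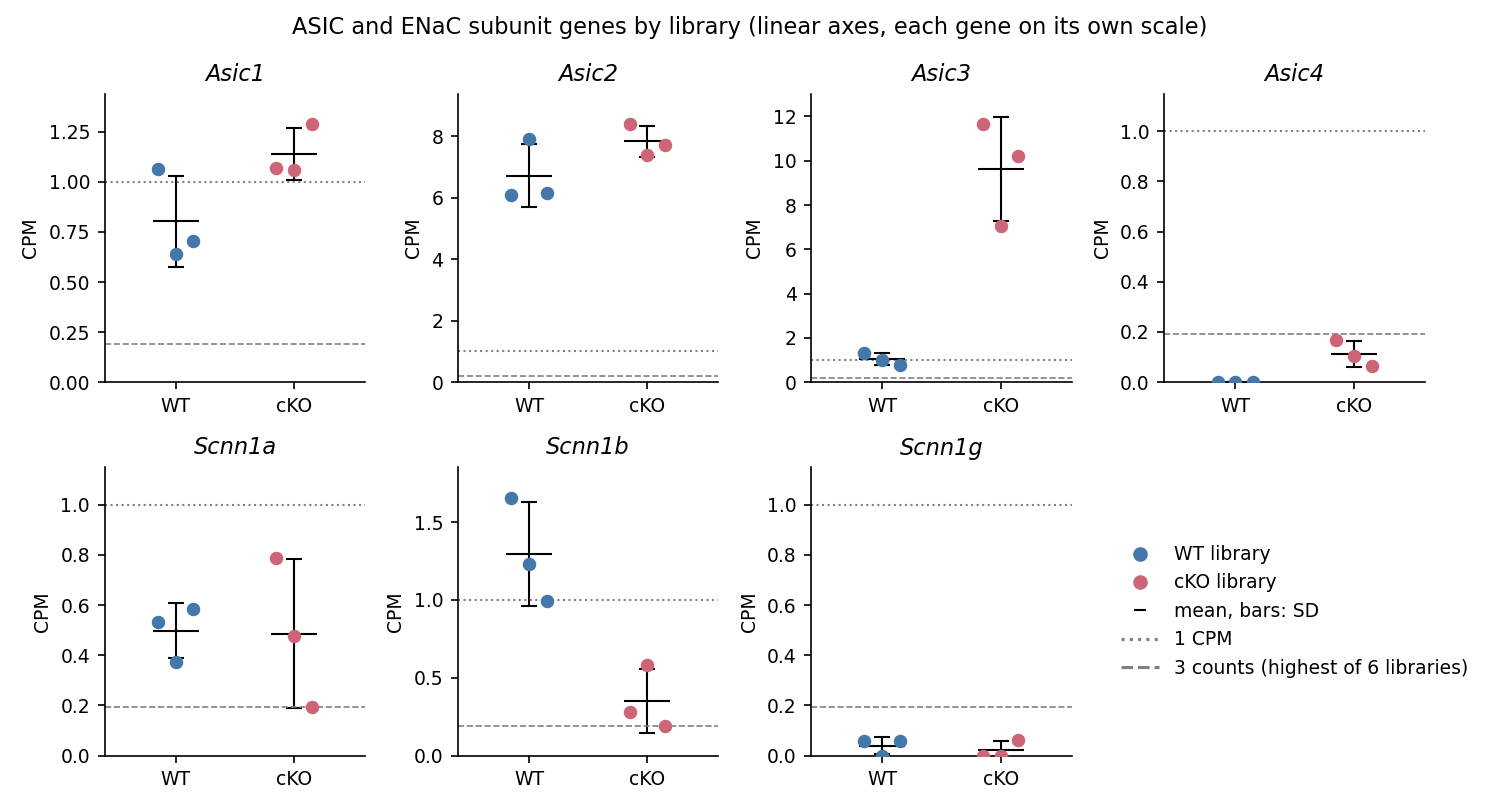
Level of each channel gene in CPM (vertical axis, linear, a separate scale per gene) in the 3 WT and 3 cKO libraries, with the mean and SD, a dotted line at 1 CPM and a dashed line at the floor of 3 counts (0.193 CPM, the highest of the 6 libraries). Asic3 was at 7.06 to 11.6 CPM in cKO and 0.761 to 1.3 CPM in WT, Scnn1b was lower in cKO, and Asic4 and Scnn1g lay under the floor line.

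Of the 7 genes, 4 passed the count filter and 3 did not. Since Asic3 was chosen by its rise and Scnn1b passed the filter through WT, no share of the 4 genes is set against the 43.7% of all genes that were called. Among the 4, the groups did not overlap for Asic3, which was higher in cKO, as were 26.6% of all genes tested without overlap, and for Scnn1b, which was lower, as were 26.9%. Asic2 was above 1 CPM in every library, while Asic4, Scnn1a and Scnn1g were above it in none.

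Because the genes differ in length, their levels were compared with each other in CPM per kilobase of exon. In WT the order by mean level was Asic2 (1.58 ± 0.243), Scnn1b (0.491 ± 0.127), Asic3 (0.423 ± 0.111), Asic1 (0.14 ± 0.0397), Scnn1a (0.12 ± 0.0266), Scnn1g (0.0131 ± 0.0113) and Asic4, which had no counts (CPM per kilobase, SD, n = 3). The libraries of Asic2 lay above those of all other genes, whereas Scnn1b and Asic3 overlapped, as did Asic1 and Scnn1a. In cKO Asic3 stood first at 3.98 ± 0.969 CPM per kilobase, followed by Asic2 at 1.83 ± 0.12 and Asic1 at 0.198 ± 0.0224. The lowest cKO library of Asic3 (2.91 CPM per kilobase) was above every library of Asic2. Below them Asic1, Scnn1b (0.134 ± 0.0778) and Scnn1a (0.118 ± 0.0719) each overlapped the next, and Asic4 and Scnn1g were lowest.

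Asic3 made up 18.3%, 14.2% and 13% of the summed CPM per kilobase of the 7 genes in the WT libraries and 65.7%, 56% and 65.7% in the cKO libraries. Asic2 made up 48.8% to 63% in WT and 26.9% to 33.2% in cKO, although its own level did not pass the test. The 3 ENaC subunits together made up 18.9% to 26.5% of the summed level in WT and 2.2% to 6.48% in cKO. The summed level itself was 2.42 to 2.94 CPM per kilobase in WT and 5.2 to 7.31 in cKO. These shares contain the rise of Asic3 that led to the choice of the genes and are given as a description.

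**Figure D2:**
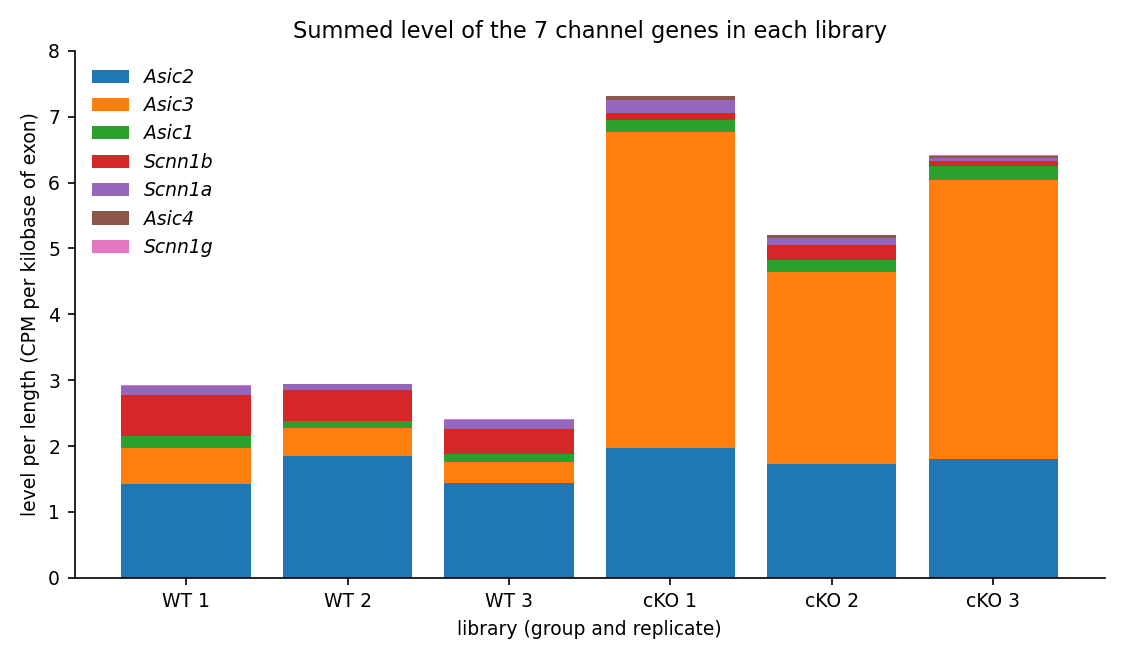
Summed level of the 7 channel genes in each library in CPM per kilobase of exon (vertical axis, linear, from 0), with 1 stacked bar per library and 1 colour per gene. Asic2 took the largest part of the WT bars (48.8% to 63%) and Asic3 that of the cKO bars (56% to 65.7%).

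Genes for proteins that act on ENaC were called in both directions, at about the rate of all genes. Of 26 ENaC regulators, 25 were tested and 10 passed at an edgeR adjusted p under 0.05 (40%, against 43.7% of all genes), 5 higher and 5 lower in cKO. Their median log2 fold change was -0.02, beside 0.002 over all genes. Nedd4l, the ubiquitin ligase that removes ENaC from the cell surface, was at 46.4, 43.5 and 46.7 CPM in WT and 59, 57.6 and 58 CPM in cKO, and rose by 0.36 on the log2 scale (edgeR adjusted p = 1.27e-04). The groups did not overlap for Nedd4l. The related ligase Nedd4 did not pass the test (log2 fold change -0.02; edgeR adjusted p = 0.8). Sgk1, the steroid-induced kinase that holds Nedd4l in check, was at 262 to 267 CPM in WT and 233 to 282 CPM in cKO, with cKO replicate 2 below and the other cKO libraries above all WT libraries (log2 fold change -0.00; edgeR adjusted p = 0.973). Its log2 fold change was 0.09 without cKO replicate 2 (edgeR adjusted p = 0.0841). The related kinase Sgk3 was at 31.8 to 33.9 CPM in WT and rose to 45.8 to 51.7 CPM in cKO (log2 fold change 0.56; edgeR adjusted p = 1.31e-05). Usp2, a deubiquitinating enzyme that acts on ENaC, rose by 0.48 (edgeR adjusted p = 0.00929), a call that DESeq2 did not make (adjusted p = 0.0682). Nr3c1, the glucocorticoid receptor, did not pass the test (log2 fold change -0.04; edgeR adjusted p = 0.509).

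The proteases that activate ENaC and their inhibitors are a second layer of control. Neither Furin (195 ± 20.9 CPM in WT and 178 ± 18.9 CPM in cKO; edgeR adjusted p = 0.217) nor the membrane-anchored protease Prss8 (log2 fold change 0.05; edgeR adjusted p = 0.851) passed the test. Without cKO replicate 2, Furin passed it with a log2 fold change of -0.20 (edgeR adjusted p = 0.0257). Of the inhibitors of such proteases, 3 passed, not all in the same direction. The Kunitz-type inhibitors Spint1 (10.9 to 12.4 CPM in WT and 15.1 to 17.2 CPM in cKO) and Spint2 (14.6 to 19.9 and 21.9 to 24.1 CPM) rose by 0.45 and 0.48 on the log2 scale (edgeR adjusted p = 0.00135 and 0.00289). Serpine2, a secreted serpin that inhibits Prss8, was at 81.8 to 90 CPM in WT and fell to 56.5 to 59.6 CPM in cKO (log2 fold change -0.55; edgeR adjusted p = 2.36e-06). The other called regulators, named after their values were seen, were Wnk1, Stk39, Plau and Cul3, all lower in cKO by 0.16 to 0.23 on the log2 scale.

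Genes for proteins that bind or modify ASICs were examined next. Of 16 such genes, 11 were tested and 6 passed (54.5%, beside 43.7% of all genes), 2 of them higher in cKO and 4 lower. Their median log2 fold change was -0.09, and 4 of the 16 were at or under the floor in every library. Akap5, the anchoring protein that brings kinases to ASICs, had the largest change, from 3.13, 4.38 and 3.57 CPM in WT to 2.14, 1.54 and 2.44 CPM in cKO (log2 fold change -0.88 ± 0.207 SE; edgeR adjusted p = 0.00373). Cav1, the main protein of caveolae, fell from 230 to 246 CPM to 161 to 175 CPM (log2 fold change -0.50; edgeR adjusted p = 2.26e-06). Both genes were lower in all cKO libraries than in any WT library. Prkca, a protein kinase C gene, and Magi1, a PDZ scaffold, fell by 0.29 and 0.27 on the log2 scale (edgeR adjusted p = 4.89e-04 and 0.0334). Ripk1, a kinase that meets ASIC1 in acid-induced cell death, rose by 0.29, and the stomatin-like gene Stoml1 rose by 0.37 (edgeR adjusted p = 4.18e-04 and 0.0175). The calls of Magi1 and Stoml1 were not made by DESeq2 (adjusted p = 0.0772 and 0.0922) and depended on single libraries. The adjusted p of Magi1 was 0.0614 and 0.161 without WT replicates 1 and 2 and 0.108 and 0.0624 without cKO replicates 2 and 3, and that of Stoml1 was 0.0512 without WT replicate 3 and 0.052 and 0.0736 without cKO replicates 1 and 3.

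Protons are also sensed by G protein-coupled receptors and by several other channels. Of 18 other proton sensors, 10 were tested and 6 passed (60%, beside 43.7% of all genes), 3 in each direction, and their median log2 fold change was -0.19. Gpr4, a proton-sensing receptor known best from endothelium, was at 4.02, 3.96 and 4.74 CPM in WT and 1.35, 1.17 and 1.67 CPM in cKO. It fell by 1.61 ± 0.193 (SE) on the log2 scale (edgeR adjusted p = 1.8e-05). The 10 endothelial markers summed to 373 to 396 CPM in WT and 317 to 329 CPM in cKO. Of these, 3 were called (30%, beside 43.7% of all genes), 2 higher and 1, the receptor gene Kdr, lower. The median log2 fold change of these 10 markers was -0.03. Kdr fell from 182 to 99.4 CPM on average, and the 2 called higher were Vwf (4.35 to 14.2 CPM) and Egfl7 (22.7 to 31 CPM). With Kdr left out after its value was seen, the other 9 summed to 199 to 210 CPM in WT and 207 to 234 CPM in cKO. Whether endothelial cells had a part in the Gpr4 level was not tested.

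Gpr65, a receptor of the same family that is known from leukocytes, rose by 0.66 (edgeR adjusted p = 0.0245). Of 12 leukocyte markers, 8 were tested and 7 were called (87.5%, beside 43.7% of all genes), all higher in cKO. Whether leukocytes had a part in the Gpr65 level was not tested. The adjusted p of Gpr65 was 0.0896 and 0.0866 without WT replicates 2 and 3, 0.0585 and 0.113 without cKO replicates 1 and 3, and 0.0825 with DESeq2. Among channels, the potassium channel gene Kcnk5, whose channel closes in acid, was at 28.8 to 29.7 CPM in WT and fell to 16.5 to 20.7 CPM in cKO (log2 fold change -0.64; edgeR adjusted p = 3.03e-05). Tmem206, the proton-activated chloride channel, fell by 0.45 and Kcnk1, a related potassium channel gene, rose by 0.34 (edgeR adjusted p = 0.00317 and 0.0106), the latter at 0.0531 without WT replicate 1. The heat and acid receptor Trpv1, which shares sensory neurons with Asic3, did not reach the count filter.

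Transporters and enzymes that set the pH inside and around cells formed another list. Of 26 genes of acid and bicarbonate handling, 20 were tested and 14 passed (70%, beside 43.7% of all genes), 7 in each direction, and their median log2 fold change was -0.00. Carbonic anhydrases interconvert carbon dioxide and bicarbonate and moved apart. The cytosolic Car3 was at 2.54, 2.78 and 2.75 CPM in WT and fell to 0.225, 0.637 and 0.386 CPM in cKO (log2 fold change -2.66 ± 0.298 SE; edgeR adjusted p = 1.02e-05). Car9, an enzyme on the outer face of the cell membrane, rose from 1.06, 0.962 and 1.41 CPM to 4.5, 2.86 and 3.86 CPM (log2 fold change 1.70 ± 0.237 SE; edgeR adjusted p = 6.48e-05). The groups overlapped for neither gene. Car3 had passed the count filter through its WT libraries (43, 52 and 47 counts, against 4, 12 and 6 in cKO), which limits what its p-value can show. Without any filter its log2 fold change was -2.67. Where 10 counts were required in every library Car3 could not be fitted, and 12 of the 18 genes then tested in this list passed. Car12, a membrane enzyme like Car9, fell by 0.62 (edgeR adjusted p = 1.09e-04).

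Sodium-proton exchangers and bicarbonate carriers also diverged. Slc9a9, an exchanger of endosomes, was at 2.95, 3.85 and 3.16 CPM in WT and rose to 10, 7.85 and 8.62 CPM in cKO (log2 fold change 1.40; edgeR adjusted p = 5.4e-06). Slc9a2, an exchanger of the cell surface, fell by 0.83 (edgeR adjusted p = 0.0398), but its adjusted p was 0.078 and 0.148 without WT replicates 1 and 3, 0.168 and 0.0542 without cKO replicates 1 and 2, and 0.16 with DESeq2. Slc4a4, the sodium bicarbonate cotransporter, fell from 62.4 to 65.5 CPM to 37.1 to 40.8 CPM (log2 fold change -0.72; edgeR adjusted p = 4.08e-07). The cKO libraries were thus below all WT libraries for Slc4a4 and above them for Slc9a9.

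The other sodium channel genes were mostly under the count filter, and 1 of those above it changed strongly. Of 19 genes, 13 did not pass the filter and 7 were at or under the floor in every library, and of the 6 tested, 3 passed (50%, beside 43.7% of all genes), 2 higher and 1 lower. Scn7a, which encodes the sodium-sensing channel NaX rather than a classical voltage-gated one, was at 2.3, 2.41 and 2.17 CPM in WT and 16.5, 12.6 and 16.3 CPM in cKO. It rose by 2.71 ± 0.148 (SE) on the log2 scale (edgeR adjusted p = 1.44e-08), with all cKO libraries far above the WT libraries and, as for Asic3, cKO replicate 2 the lowest of the cKO libraries. The voltage-gated channel genes Scn2a and Scn3a moved apart, from 2.07 to 2.51 CPM in WT to 2.9 to 3.49 CPM in cKO for Scn2a and from 2.22 to 2.48 CPM to 1.18 to 1.48 CPM for Scn3a (edgeR adjusted p = 0.0239 and 0.00622). The adjusted p of Scn2a was 0.0776 and 0.0742 without WT replicates 1 and 3 and 0.0842 without cKO replicate 1. DESeq2 called 1 gene of this list, with adjusted p of 0.142 for Scn2a and 0.0501 for Scn3a.

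**Figure D3:**
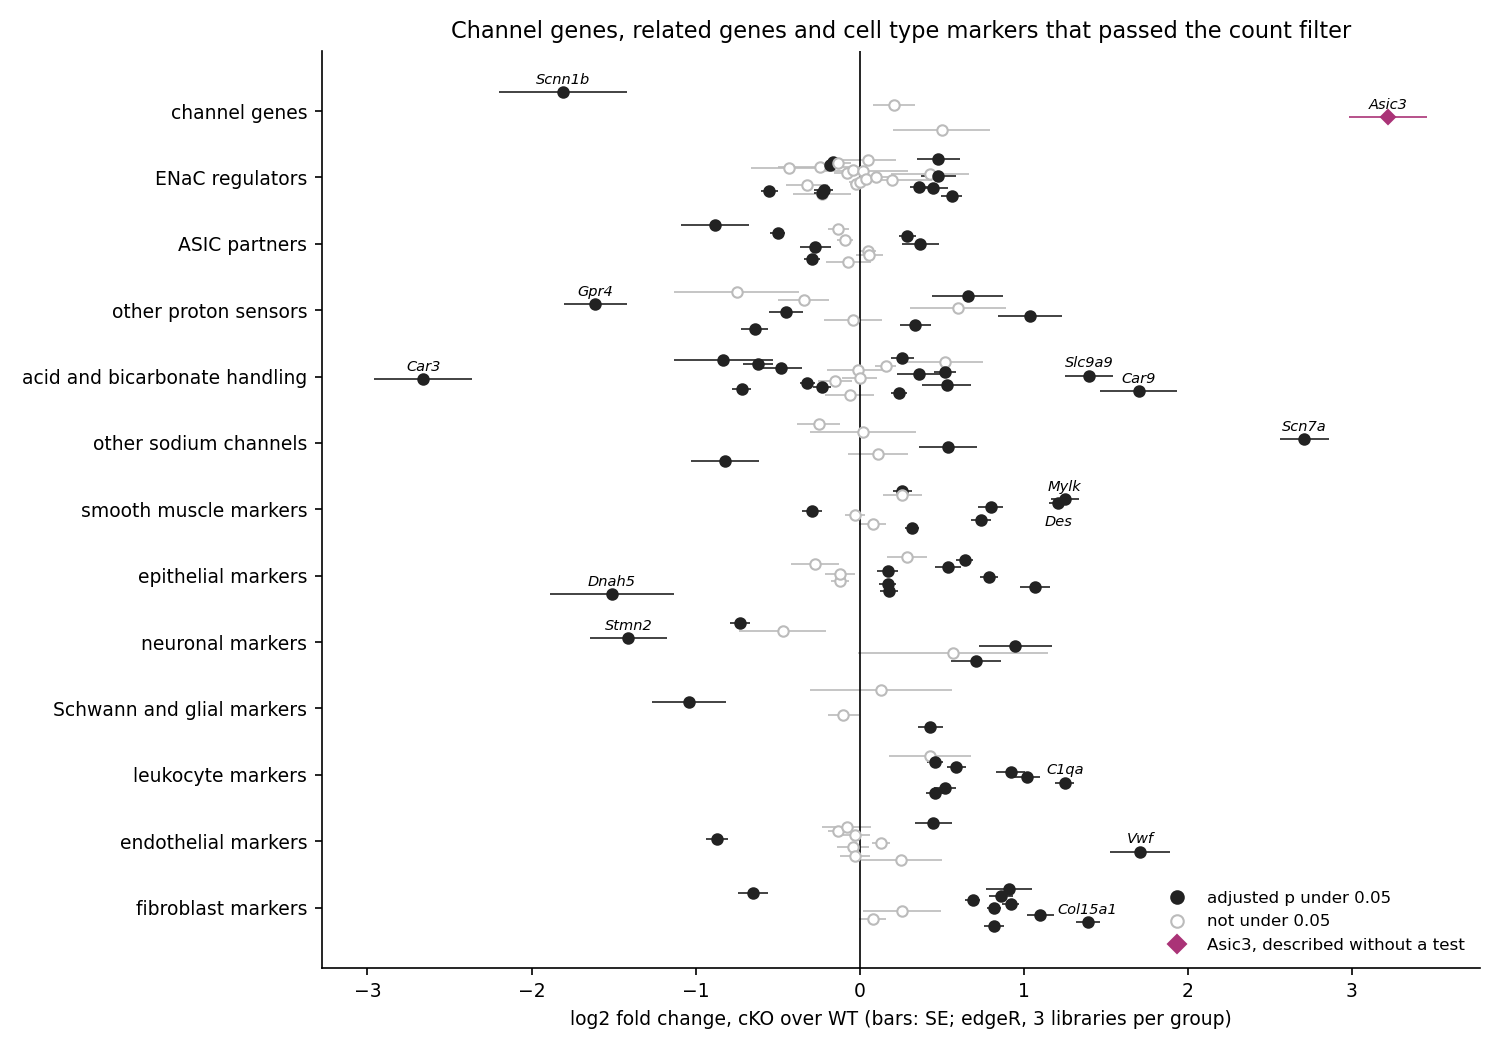
Log2 fold change of cKO over WT (horizontal axis, bars are SE, 3 libraries per group) of every tested gene in the channel group, the pathway lists and the cell type marker lists (rows). Filled points had an edgeR adjusted p under 0.05, and Asic3 (diamond, 3.22) is drawn without a test. Scnn1b at -1.81 lay on the other side of 0, and within most pathway lists filled points stood on both sides.

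The genes around Asic3 were examined next. Its closest tested neighbours were Abcb8, a mitochondrial transporter 3.34 kb upstream, and Cdk5, a kinase 0.406 kb downstream on the opposite strand. Both had much smaller log2 fold changes than Asic3. Abcb8 was at 21.9, 18.7 and 21.6 CPM in WT and 17, 21.5 and 22.2 CPM in cKO (log2 fold change -0.03; edgeR adjusted p = 0.822), and the groups overlapped. Cdk5 was at 18.4, 18.6 and 18.8 CPM in WT and 23.3, 19.4 and 23.9 CPM in cKO (log2 fold change 0.25; edgeR adjusted p = 0.0305), and the groups did not overlap. The call of Cdk5 was lost when any of 5 libraries was left out, with adjusted p of 0.0803, 0.078 and 0.0696 without WT replicates 1, 2 and 3, 0.115 and 0.112 without cKO replicates 1 and 3, and 0.0891 with DESeq2. The reads of Asic3 and Cdk5 came from different strands and their exons did not overlap.

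Distances are given as the gap between the bodies of the genes. Within 200 kb of Asic3, 13 other genes were tested and 6 passed, beside 43.7% of all genes tested. All 6 were higher in cKO, so 6 of the 13 tested were called higher, beside 21.9% of all genes tested. Of the 6723 genes called in the whole table, 3373 were higher in cKO. Under 6 of the alternatives 1 gene in this window was also called lower. The median log2 fold change of the 13 genes was 0.24. The 3 largest changes, named after their values were seen, were those of Gbx1, a homeobox gene 84.9 kb downstream (2.22 ± 0.446 SE), Nos3, the endothelial nitric oxide synthase gene 28.9 kb upstream (1.20 ± 0.212), and Kcnh2, a potassium channel gene 61.8 kb upstream (0.91 ± 0.201). Gbx1 had 0.0585 to 0.374 CPM in WT and 0.956 to 1.06 CPM in cKO, Nos3 had 1.05 to 1.54 and 2.64 to 3.37 CPM, and Kcnh2 had 3.04 to 4.02 and 4.51 to 7.87 CPM. The groups overlapped for none of these 3 genes, and none had a log2 fold change as large as that of Asic3. Gbx1 had passed the count filter through its cKO libraries, which limits what its call can show here and in the other windows. Where 10 counts were required in every library Gbx1 could not be fitted. Of the 12 genes then tested within 200 kb, 5 were called higher and 1 lower. In a window of 100 kb 5 of 10 genes passed and in one of 500 kb 10 of 19, beside the same 43.7% of all genes, and all were higher in cKO.

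**Figure D4:**
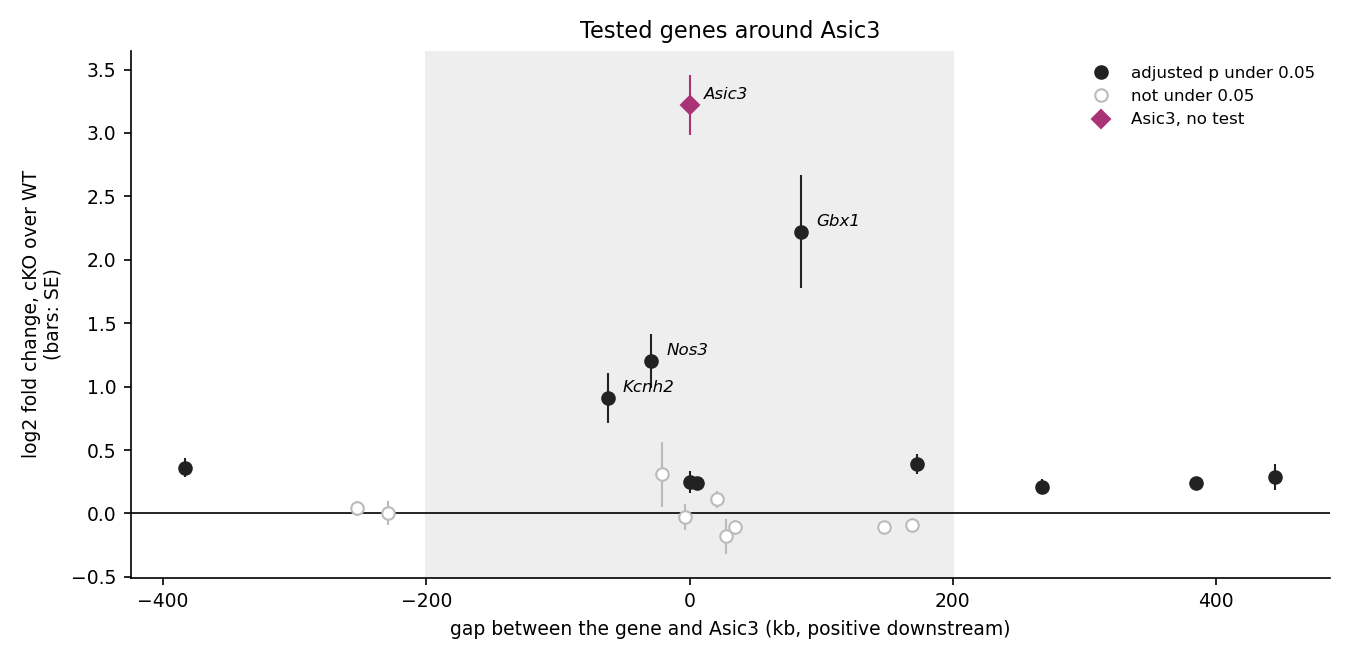
Log2 fold change of cKO over WT (vertical axis, bars are SE) of tested genes against the gap between the gene and Asic3 (horizontal axis, in kb, positive downstream), with the 200 kb window shaded. Asic3 (diamond, 3.22) stood above Gbx1 (2.22), Nos3 (1.20) and Kcnh2 (0.91), with genes near 0 between them.

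Lastly, the tested genes whose pattern over the 6 libraries was most like that of Asic3 were listed, by the root mean square difference of log2 CPM after each gene was centred on its WT mean. The 5 closest were Ifi213 (0.124), Lgi2 (0.195), Abca8a (0.287), Ifi206 (0.307) and Trim12a (0.31 log2 units). Lgi2, the one with the most counts, was at 11.1, 11 and 10.2 CPM in WT and 100.4, 62 and 95 CPM in cKO. Like Asic3, it was lowest of the cKO libraries in replicate 2. Abca8a rose from a mean of 1.44 to 11.4 CPM and Trim12a from 0.993 to 7.64 CPM. Ifi213 and Ifi206 were at 0.134 and 0.152 CPM on average in WT, under the floor, and at 2.01 and 1.64 CPM in cKO. Both had passed the count filter through their cKO libraries. Their fitted log2 fold changes were 3.84 and 3.37, against 3.22 for Asic3, and the prior count of 2 shrinks differences at such low counts. These genes were picked for their likeness to Asic3, so their levels are a description and were not tested.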

How the data were processed

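The authors deposited whole-number read counts per gene for 6 libraries of D2 primary oviductal smooth muscle cells (3 WT, 3 Pbrm1 cKO), counted per the file headers with featureCounts 1.6.4 over GENCODE M18 exons in reverse-stranded mode. Per the labels, reads were trimmed with cutadapt and aligned with HISAT2 to GRCm38.p5, and libraries were strand-selected and depleted of unwanted transcripts. Of 54232 identifiers, 54079 (99.7%) matched a GENCODE symbol. Totals were 15390818 to 18947947 counts. Reads that mapped to several genes were not counted by default settings, and the floor covers counting error only.

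The two-sided quasi-likelihood F-test of edgeR 4.0.16 (R 4.3.3) was used with TMM factors and filterByExpr by group, adjusted by Benjamini-Hochberg over 15376 genes at a threshold of 0.05. The SE is the absolute log2 fold change divided by the square root of F and patterns were compared on log2 CPM with a prior count of 2. Means are given with SD over 3 libraries. Pairs of libraries of the same group differed by more than sampling noise (chi-square per gene 1.31 to 1.6). The edgeR test was checked on simulated counts. DESeq2 1.42.0, limma-voom (limma 3.58.1), other scalings and filters, a block for the replicate number, and the omission of 1 library at a time were the alternatives.

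The 7 channel genes and all lists were chosen with earlier results of these data known. The genes named were Pbrm1, the 7 channel genes, up to 6 called genes of each list with the largest change, Nedd4l, Nedd4, Sgk1, Nr3c1, Furin and Prss8, the nearest tested gene on each side of Asic3, genes whose exons overlap a channel gene, and the 5 genes most like Asic3. Cell type markers were described as lists, with single markers named to define them. Levels per length divide CPM by the exon length in the table. Promoters came from RefSeq and matched 5 of the 7 genes. Some genes that the naming rule covers are not reported here.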

Additional observations from a re-analysis of the deposited data

How the results depend on the processing

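Over the alternatives, the number of genes called was 5329 with DESeq2 (5280 shared with edgeR) and 5532 to 7054 when a library was left out, against 6723, and the median over all genes was at most 0.017 on the log2 scale. The log2 fold change of Asic3 lay between 3.05 and 3.41 and that of Scnn1b between -2.39 and -1.55 (adjusted p 1.52e-05 to 0.0136 over 13 alternatives). Scnn1b had passed the main count filter through its WT libraries, which limits what these p-values can show. It could not be fitted where 10 counts were required in every library. Asic1 (0.36 to 0.75, adjusted p 0.101 to 0.479) and Asic2 (0.15 to 0.35, adjusted p 0.0568 to 0.451) were called by no alternative. With library size as the only scaling, Nedd4 was at 0.00 and Sgk1 at 0.01, and when 1 library was left out Sgk1 ranged from -0.05 to 0.09, the latter without cKO replicate 2. Abcb8 ranged from -0.10 to 0.08, and was above 0 without WT replicate 1 (0.01) and without cKO replicate 1 (0.08). None of these values passed the threshold, and the cause was not tested. DESeq2 called 1 gene among the other sodium channels in place of 3, and a window of 500 kb around Asic3 held 10 called genes in place of 6, since it spans more genes. Furin was called without the filter (-0.14), with the replicate block (-0.13) and without cKO replicate 2. In 32 further cases, spread over 9 named genes, a call was lost with the direction kept.

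Same-numbered libraries of the groups did not deviate together (r = -0.0243, 0.0353 and 0.0928), so the numbers were not taken as pairs. With the replicate block 6908 genes were called, 6617 of which were also called without the block. Counts of 3 to 28 in Scnn1b, Asic1 and Scnn1a limit what these libraries can show, and Asic4 and Scnn1g lay at or under the floor.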
